A study of Mus musculus with 6 samples.

Results

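Kinesins, cytoplasmic dynein and dynactin are the proteins that move cargo along microtubules, and their genes were followed here in the auditory nerve of young and old mice. Members were the rows of the deposited table whose gene symbol began with Kif and a digit, Kifc, Klc and a digit, Dync, Dynl or Dctn and whose mean over the 6 libraries was at least 10 normalised counts. The symbols matched 67 of the 17607 genes, 64 of them reached the minimum mean, and all 64 were among the 15882 genes tested. Kif2c lay just inside the minimum with a mean of 10.04, and Kif18b (8.94), Kif14 (7.88) and Kif12 (2.67) lay outside it. The symbols also took in Kif1bp, which encodes a protein that binds kinesins and is no motor itself.

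Transcripts of the nerve were measured by RNA sequencing in 3 young adult mice, 2 months of age, and 3 old mice, 2.5 years of age. All 6 animals were CBA/CaJ, an inbred strain used in hearing research, with no treatment or altered allele named in the labels. Each library came from the 2 cochleas of 1 mouse, pooled after the nerve had been dissected out, so the replicates were separate animals. Recovered reads came to between 34587979 and 40841478 per library. Values are given in the order of libraries 1, 2 and 3 of an age. Markers of neurons (12 of 12 listed genes tested) and of Schwann cells (12 of 12) were present in every library, which fits the labelled tissue. Their summed levels were 237651 to 424518 and 498436 to 562648 normalised counts, and those of osteoblasts, cells of the surrounding bone, were 7382 to 27976.

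Spiral ganglion neurons link the sensory hair cells to the brainstem, and their long axons depend on motors to bring in material made in the cell body. Most kinesins walk outward towards microtubule plus ends, while cytoplasmic dynein carries cargo back to the cell body and needs dynactin and an adaptor to do so. Kinesin-1 is built from long motor chains (the Kif5 genes) and short light chains (the Klc genes) that hold cargo, and dynein likewise combines very long heavy chains with small light chains. A further set of kinesins builds the mitotic spindle or works in cilia.

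The comparison asked how the level of each motor gene differed between young and old nerves. Of the 64 members 25 passed an adjusted p under 0.05 in limma (39.1%, against 34.6% of all genes tested). In the old nerves 19 were lower (29.7%, against 18.7% of all genes) and 6 were higher (9.38%, against 15.9%). The median log2 fold change, which is old minus young after adding 1 to each normalised count, was -0.17 over the members and -0.00 over all genes. All 3 old libraries lay below all 3 young libraries in 28 members (43.8%, against 26.3% of all genes) and above them in 9 (14.1%, against 25.5%), and the groups overlapped in the remaining 27. Members made up 1.38%, 1.34% and 1.33% of all normalised counts in the young libraries and 0.910%, 0.973% and 1.14% in the old ones. The count of 25 fell to 10 without young 2 (15.6%, against 16.1% of all genes in that fit), to 13 without young 3 (20.3% against 19.04%) and to 15 without old 2 (23.4% against 25.6%). Without young 1 and old 2 together it was 5 of 63 (7.94% against 11.2%). In the fits without young 2, without old 2 and without young 1 and old 2 the members' share was thus not above that of all genes. Upper-quartile scaling gave 15 lower and 9 higher members in place of 19 and 6.

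**Figure D1:**
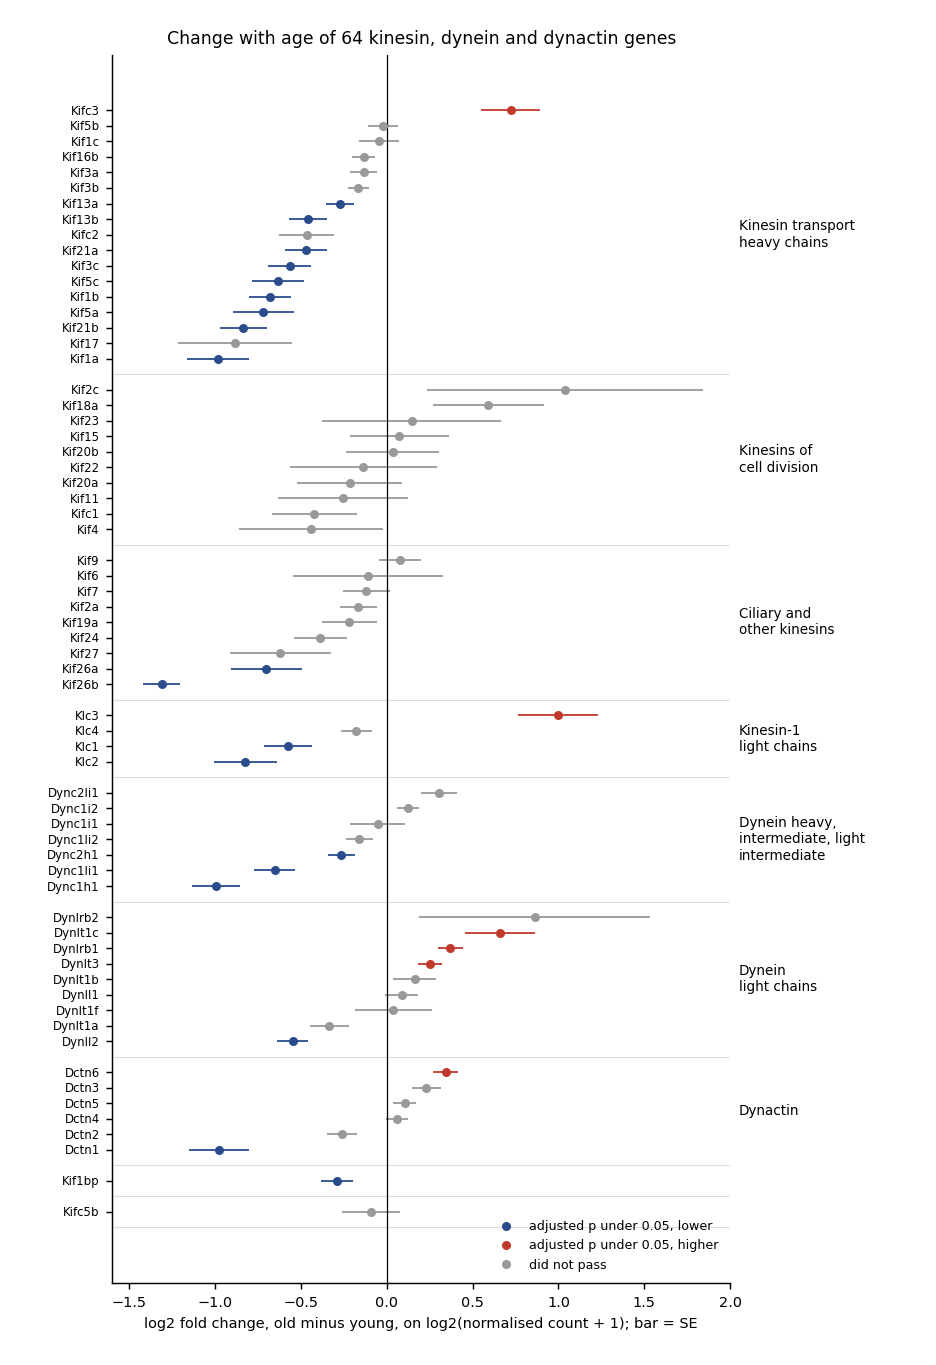
Log2 fold change, old minus young, of the 64 members (x axis, points) with its standard error (bars), grouped by role and coloured by the limma call. The 9 transport kinesins that passed as lower lie between -0.98 and -0.27, and the 10 kinesins of cell division are all grey, with standard errors from 0.25 to 0.80.

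For 5 members that passed, the bases before the start site are shown, since 4 of these genes fell together and the last rose. The 5 windows below are the 200 bases before the RefSeq start site (assembly GRCm38.p6), read 5′ to 3′ along the gene's own strand. Capitals mark matches, on either strand, to the GC box GGGCGG, the CCAAT box CCAAT, the TATA box TATAAA, the cyclic AMP response element TGACGTCA, its core TGACG, the E-box CACGTG and the NRF1 core GCGCATGC. The core TGACG overlaps the full element, which therefore counts as a match to both. Windows are given for Kif1a (chr1:93101875-93102074, minus strand), Kif5c (chr2:49619086-49619285, plus strand), Dync1h1 (chr12:110601195-110601394, plus strand) and Klc1 (chr12:111758668-111758867, plus strand), which fell with age, and for Klc3 (chr7:19404105-19404304, minus strand), which rose.
Kif1a: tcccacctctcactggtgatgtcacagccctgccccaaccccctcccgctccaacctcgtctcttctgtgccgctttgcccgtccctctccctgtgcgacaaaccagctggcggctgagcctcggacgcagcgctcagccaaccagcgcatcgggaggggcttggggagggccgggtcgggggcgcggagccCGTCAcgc
Kif5c: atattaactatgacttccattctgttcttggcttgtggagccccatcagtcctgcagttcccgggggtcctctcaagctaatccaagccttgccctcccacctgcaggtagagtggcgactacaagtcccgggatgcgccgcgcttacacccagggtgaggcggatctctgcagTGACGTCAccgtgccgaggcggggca
Dync1h1: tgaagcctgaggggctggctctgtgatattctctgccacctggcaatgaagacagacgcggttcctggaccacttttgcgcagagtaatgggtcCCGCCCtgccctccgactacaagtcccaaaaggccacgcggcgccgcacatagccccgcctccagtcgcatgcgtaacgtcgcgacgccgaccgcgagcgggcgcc
Klc1: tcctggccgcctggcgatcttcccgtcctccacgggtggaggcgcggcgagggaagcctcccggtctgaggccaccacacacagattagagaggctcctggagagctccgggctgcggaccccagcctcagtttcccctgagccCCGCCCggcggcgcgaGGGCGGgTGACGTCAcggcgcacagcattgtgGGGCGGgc
Klc3: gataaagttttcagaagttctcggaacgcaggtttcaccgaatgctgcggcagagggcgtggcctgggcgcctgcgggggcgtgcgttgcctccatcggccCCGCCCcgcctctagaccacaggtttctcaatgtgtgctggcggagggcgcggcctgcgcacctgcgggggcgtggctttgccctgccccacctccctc
The response element stood in the windows of Kif5c and Klc1, and the Kif1a window held 1 match to its core. Klc1 had 3 matches to the GC box, Dync1h1 and Klc3 had 1 each, and Kif1a and Kif5c had 0. Among all 32851 RefSeq windows of this length 31% held the GC box, 1.47% the response element and 15.7% its core, and none of the 5 windows held a CCAAT box (29.3% of all windows), a TATA box (9.96%), an E-box (5.26%) or the NRF1 core (2.1%). These 5 windows are examples, and their counts stand for no share of the members. A window was at hand for 47 of the 64 members. Of these 47 windows 61.7% held the GC box, 40.4% the CCAAT box, 8.51% the response element and 36.2% its core. Among the 13 windows of members that passed as lower, 2 held the response element, those of Kif5c and Klc1, and 5 its core (38.5%). Of the same 13 windows 8 held the GC box (61.5%) and 3 a CCAAT box. Among the 4 windows of members that passed as higher, 0 held the response element and 2 its core. All 4 held the GC box and 1 a CCAAT box. Whether any motif goes with the direction of change was not tested. GC content was 70% for Kif1a, 59.5% for Kif5c, 64.5% for Dync1h1, 72% for Klc1 and 67.5% for Klc3.

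Most motor chains of kinesins that carry cargo were lower in the old nerves. Of 17 such genes 9 passed as lower (52.9%, against 18.7% of all genes) and 1 as higher (5.88% against 15.9%), and 16 had a negative log2 fold change, with a median of -0.47. Their count of 10 calls fell to 7 without young 1 or old 1 (41.2%, against 22.2% and 23.2% of all genes) and to 5 without young 3 or old 2 (29.4%, against 19.04% and 25.6%). Without young 2 it was 3 (17.6% against 16.1%), and once trends in length and GC content were taken out, as described further on, it was 2 (11.8% against 22.9%). Kif1a, the kinesin-3 motor of synaptic vesicle precursors (chromosome 1, 93015455 to 93101874 on mm10, minus strand), was at 63099, 61629 and 58761 normalised counts in the young libraries and at 24458, 29942 and 40311 in the old ones. The old libraries thus lay well below the young ones, with old 1 lowest, and Kif1a fell from a mean of 61163 ± 2206 (SD, n = 3) to 31570 ± 8051 (log2 fold change -0.98 ± 0.18 SE, adjusted p = 0.00854). Kif1b, a relative of Kif1a that moves mitochondria and vesicles, read 47092, 43917 and 41792 in the young libraries and 23900, 27625 and 31767 in the old ones (-0.68 ± 0.12, adjusted p = 0.00861). Both calls held with any 1 library left out. Kif1c, another gene of this family and widely expressed outside neurons, showed 8140, 9418 and 8339 counts against 8974, 7071 and 9170, so the groups overlapped (-0.05 ± 0.12, adjusted p = 0.789).

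The kinesin-1 family was split in the same way. Kif5a, a motor chain concentrated in neurons and mutated in a hereditary spastic paraplegia, went from 44861, 39496 and 39652 counts in the young libraries to 19390, 25292 and 32041 in the old ones (log2 fold change -0.72 ± 0.18, adjusted p = 0.0213). Kif5c, its other neuronal relative, was at 26200, 26853 and 25203 against 14294, 15457 and 21507 (-0.63 ± 0.15, adjusted p = 0.019). For both genes no old library reached the lowest young one, and old 3 came nearest. Kif5b, the form found in most cells, was at 16959, 17039 and 15822 against 16933, 14790 and 17394 (-0.02 ± 0.09, adjusted p = 0.858), with overlapping groups. The Kif5a call was lost without young 1, 2, 3 or old 2 (adjusted p 0.0534 to 0.0644), and the Kif5c call was lost when any library but old 3 was left out (0.0502 to 0.0678).

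Kinesin-2, a motor of 2 different heavy chains that serves axons and cilia, had 1 gene that passed among the 3 chains Kif3a, Kif3b and Kif3c. Its further subunit Kifap3, outside the symbol rule, fell by 0.36 ± 0.09 (adjusted p = 0.0248). That call held in 1 of 7 fits with libraries left out. Kif3c was at 22291, 22603 and 22787 counts in the young libraries and at 13241, 14539 and 18335 in the old ones (-0.57 ± 0.12, adjusted p = 0.0138), a call lost without young 2 (adjusted p = 0.0535) or young 3 (0.0509). Kif3a, the partner of either other chain, was at 11643, 11802 and 11728 against 9946, 10480 and 11647 (-0.14 ± 0.08, adjusted p = 0.207), where old 3 reached the young range. Kif3b, the commoner partner outside neurons, was at 2949, 2946 and 2973 against 2589, 2564 and 2757 (-0.17 ± 0.06, adjusted p = 0.0675), below every young library and yet short of the threshold. Without old 3 both passed (adjusted p = 0.0399 for Kif3a and 0.0329 for Kif3b).

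Among the other transport motors, Kif21b, a kinesin-4 motor that restrains microtubule growth in neurons, fell from 3181 ± 212 to 1801 ± 357 (-0.84 ± 0.14, adjusted p = 0.00707). Its old libraries read 1525, 1674 and 2204, all under the lowest young value of 2936, and the call held with any 1 library left out. Kif21a, its relative, fell by 0.47 ± 0.12 on the log2 scale (adjusted p = 0.0252), but not without young 1 or 2 or old 1 or 2 (adjusted p 0.0589 to 0.0699). Kif13b, a kinesin-3 motor of membrane cargo, fell by 0.46 ± 0.11 (adjusted p = 0.0187) and lost its call without young 2, young 3 or old 2 (0.0543 to 0.0696). Kif13a fell by 0.27 ± 0.08 (adjusted p = 0.0391) and lost it without young 2, young 3, old 1 or old 2 (0.0963 to 0.134). Kifc3, a motor that walks towards the minus end and is known from cell junctions of epithelia, ran the other way. It read 4311, 5569 and 5962 counts in the young libraries and 10728, 8074 and 7395 in the old ones, every old library above every young one (0.72 ± 0.17, adjusted p = 0.0179, and 0.0522 without young 2). The others, Kif16b (-0.14 ± 0.07), Kifc2 (-0.47 ± 0.16) and Kif17 (-0.88 ± 0.33, at most 57.3 counts in any library), lay below every young library in every old one and did not pass (adjusted p 0.163, 0.057 and 0.078). Kifc2 passed without old 3 (adjusted p = 0.0138).

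**Figure D2:**
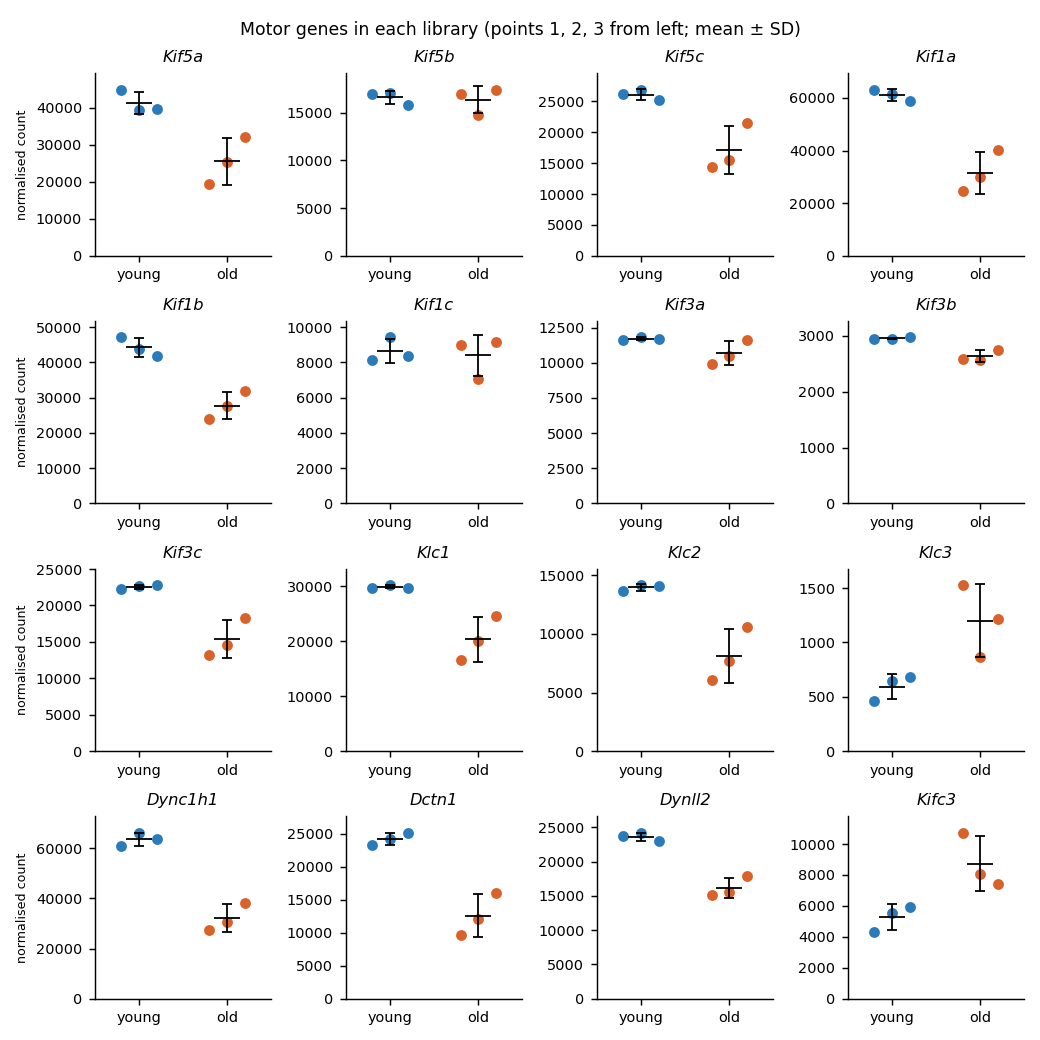
Normalised counts (y axes, from 0) of 16 members in each young and old library (points), with the group mean and SD (bars). Kif5b and Kif1c overlap between ages, Kif1a, Dync1h1 and Dctn1 leave a wide gap between ages, and Klc3 and Kifc3 are higher in the old libraries.

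The 4 kinesin-1 light chains did not share a direction. Klc1, the main neuronal light chain (chromosome 12, 111758849 to 111807844, plus strand), was at 29804, 30240 and 29765 counts in the young libraries and at 16513, 19971 and 24536 in the old ones (-0.58 ± 0.14, adjusted p = 0.0206). Klc2, which pairs with the same motors, was at 13665, 14169 and 14107 against 6043, 7669 and 10604 (-0.82 ± 0.18, adjusted p = 0.0153). For both genes the young libraries lay within a narrow band and the old ones were spread below it, with old 1 lowest and old 3 highest. The Klc1 call was lost without young 1, 2 or 3 or old 2 (adjusted p 0.0545 to 0.0696), and the Klc2 call without young 2 (0.0566) or young 3 (0.0517). Klc3, a light chain best known from sperm tails (chromosome 7, 19394440 to 19404104, minus strand), was at 459, 646 and 678 counts against 1528, 862 and 1213 (0.995 ± 0.23, adjusted p = 0.0175). Every old library exceeded every young one in Klc3, old 1 was highest, and the call held with any 1 library left out. Klc4 was at 1830, 1825 and 1842 against 1446, 1630 and 1802 (-0.18 ± 0.09, adjusted p = 0.161). Its old libraries lay below the young ones, and it passed without old 3 (adjusted p = 0.0393).

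In cytoplasmic dynein 3 of the 7 heavy, intermediate and light intermediate chains fell (42.9%, against 18.7% of all genes) and 0 rose (against 15.9%). Dync1h1, the motor-bearing heavy chain on which every cytoplasmic dynein of the axon depends (chromosome 12, 110601395 to 110666944, plus strand), read 60808, 66086 and 63672 counts in the young libraries and 27351, 30726 and 38323 in the old ones. This was a fall from 63522 ± 2642 to 32133 ± 5620, or to 50.6% of the young mean (log2 fold change -0.997 ± 0.14, adjusted p = 0.00544), and no old library came near the lowest young one. Dync1li1, a light intermediate chain that binds cargo adaptors, was at 4145, 3937 and 4179 against 2164, 2650 and 3050 (-0.65 ± 0.12, adjusted p = 0.00891). Both calls held with any 1 library left out. Dync1li2, the other light intermediate chain of this dynein, did not pass (-0.16 ± 0.08, adjusted p = 0.154), and its groups overlapped. Dync1i1, the intermediate chain of neurons, read 14432, 16570 and 15860 against 13422, 12994 and 19434 (-0.05 ± 0.16, adjusted p = 0.816), where old 3 was the highest of all 6 libraries. Dync1i2, the intermediate chain of most cells, read 6394, 6085 and 6142 against 6529, 6648 and 7147 (0.13 ± 0.06, adjusted p = 0.167), above every young library in every old one but short of the threshold, and it passed under upper-quartile scaling (adjusted p = 0.0349). Of the dynein that returns cargo within cilia, the heavy chain Dync2h1 fell by 0.27 ± 0.08 (adjusted p = 0.0396), a call lost without young 2, young 3, old 1 or old 2 (0.0948 to 0.136). Dync2li1, a light intermediate chain of that dynein, went the other way, above every young library in every old one (0.30 ± 0.11, adjusted p = 0.0626). It passed only without old 3 (0.0102) and under upper-quartile scaling (0.0364) among the scalings and fits with 1 library left out. With the length and GC trends removed it was at -0.12 (adjusted p = 0.355).

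The dynein light chains, small subunits of 89 to 116 residues, had 3 of 9 higher (33.3%, against 15.9% of all genes), 1 lower (11.1% against 18.7%) and a median log2 fold change of 0.16. Among all genes with transcripts up to 2000 nt 30.1% were higher, and once trends in length and GC content were taken out 0 of the 9 were higher and their median was -0.13. Dynll2 was the member that fell. It encodes a hub protein that binds dynein and also many proteins outside it, and it was at 23666, 24196 and 23026 counts in the young libraries and at 15155, 15505 and 17887 in the old ones (-0.55 ± 0.09, adjusted p = 0.00671). Dynll1, its close relative, was at 3815, 3314 and 3947 against 3852, 4316 and 3592 (0.09 ± 0.10, adjusted p = 0.517), with overlapping groups. Dynlrb1, of the roadblock family, rose from 3579, 3103 and 3461 to 4332, 4226 and 4524 (0.37 ± 0.07, adjusted p = 0.011). The calls of Dynll2 and Dynlrb1 held with any 1 library left out. Dynlt1a, of the Tctex family, was at 681, 754 and 881 against 640, 582 and 605, below every young library in every old one but short of the threshold (-0.33 ± 0.11, adjusted p = 0.0568). Dynlt3, of the same family, rose by 0.25 ± 0.07 (adjusted p = 0.027, and 0.0602 to 0.108 without young 2, young 3, old 1 or old 2). Dynlt1c rose by 0.66 ± 0.20 at 132 to 293 counts (adjusted p = 0.0425), and the call was lost when any library but old 3 was left out (0.0642 to 0.129). Dynlt1c lies across the near-identical Dynlt1f on the same strand for 54053 bases, so its reads are uncertain, and Dynlt1f did not pass (0.04 ± 0.22, adjusted p = 0.914).

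Dynactin, the complex that ties dynein to cargo and to the microtubule, had 1 of its 6 subunits with a Dctn symbol lower and 1 higher. These counts (16.7% each) were near the shares of all genes (18.7% lower and 15.9% higher). Further dynactin subunits lie outside the symbol rule and were counted with the adaptors and regulators below. Of these Actr1b was lower (-0.67 ± 0.12, adjusted p = 0.00805) and Capza2 higher (0.27 ± 0.07, adjusted p = 0.022). With the length and GC trends removed Actr1b passed (adjusted p = 0.0153) and Capza2 did not (0.697). Actr1a, Actr10, Capza1 and Capzb did not pass. Dctn1, the microtubule-binding subunit, read 23231, 24142 and 25137 counts in the young libraries and 9595, 12014 and 16063 in the old ones (-0.98 ± 0.17, adjusted p = 0.00818). Old 3 was the highest of the old libraries and still below every young one, and the call held with any 1 library left out. Dctn6, a subunit of the pointed end of the complex, rose from 1793, 1661 and 1590 to 2212, 2134 and 2044 (0.34 ± 0.07, adjusted p = 0.0129), a call lost without young 2 (0.0548) or young 3 (0.0561). The other 4 Dctn genes did not pass, with log2 fold changes between -0.26 for Dctn2 and 0.23 for Dctn3. Dctn2, whose protein forms the shoulder of the complex, was at 7586, 7409 and 7520 against 5661, 6149 and 7063 (adjusted p = 0.0576), below every young library in every old one. On chromosome 10 Dctn2 (plus strand) and Kif5a (minus strand) lie head to head, with 2898 bases between them.

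Kinesins that are known from cell division were low, and none of them passed. Of 10 tested limma called 0 (against 34.6% of all genes), with 0 at an unadjusted p under 0.05, and edgeR and DESeq2 called 0 as well. Their log2 fold changes were above 0 in 5 and below it in 5, and the groups overlapped in all 10. Of all genes 26.3% had every old library below the young ones and 25.5% had every old library above them. Kif20b, the most abundant by mean, was at 69.0 ± 18.5 in the young and 70.3 ± 15.05 in the old libraries (0.03 ± 0.27, adjusted p = 0.934). Kif18a, with the smallest p of the group, was at 24.3 ± 7.87 against 36.5 ± 7.72 (0.59 ± 0.32, adjusted p = 0.192). At these depths a change of this size could not be told from the spread. Markers of dividing cells had 1 of 8 tested genes higher (Pcna) and 0 lower. Their sum was 1055 to 1199 normalised counts in the young and 1457 to 1657 in the old libraries, and without Pcna it was 226 to 414 and 336 to 505, which overlap. Pcna did not pass with the length and GC trends removed (adjusted p = 0.662).

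Among 9 kinesins of cilia and other functions 2 fell (22.2%, near the 18.7% of all genes) and 0 rose. Both belong to the Kif26 family of atypical kinesins that bind microtubules without walking. Kif26b (chromosome 1, 178529125 to 178932857, plus strand), known from Wnt signalling and kidney development, was at 872, 783 and 802 counts in the young libraries and at 293, 344 and 353 in the old ones. Its old level was 40.3% of the young mean, the lowest such share among the members that passed (-1.31 ± 0.11, adjusted p = 0.00399). It was also the only member called in every fit that was run, including those with a library left out, the replicate block and the length and GC trends removed. Kif26a, at 312, 267 and 209 against 132, 195 and 156, fell by 0.70 ± 0.21 (adjusted p = 0.0376), but not without young 1, young 2, old 1 or old 3 (0.0704 to 0.111). Kif2a, a kinesin that trims microtubule ends and the most abundant of the group by mean, did not pass (-0.17 ± 0.11, adjusted p = 0.258), though it did without old 3 (adjusted p = 0.0347). Markers of motile cilia, 8 of 10 in the table, had 1 lower and 0 higher. Kif1bp, the kinesin-binding protein, fell by 0.29 ± 0.09 (adjusted p = 0.0467). This call was lost when any library but old 3 was left out (0.091 to 0.136) and in edgeR (adjusted p = 0.0564).

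Ratios between close relatives compare genes within a library, where a scaling factor cancels. In 8 of 9 ratios the 3 old libraries lay on one side of the 3 young ones, which gave the smallest p that an exact two-sided permutation test of 3 against 3 allows (p = 0.1, Benjamini-Hochberg 0.112 over the 9). None could therefore reach the threshold. The pairs were chosen with earlier results known, and in each of these 8 at least 1 gene passed and did not overlap between ages by itself. The separation of the ratios is thus no independent support. How often ratios of other gene pairs separate was not counted. The log2 ratio of Kif5a to Kif5b was 1.40, 1.21 and 1.33 in the young and 0.20, 0.77 and 0.88 in the old libraries, a mean change of -0.70. That of Kif5c to Kif5b moved from 0.65 ± 0.02 to 0.04 ± 0.28, and that of Kif1a to Kif1c from 2.83 ± 0.12 to 1.89 ± 0.38. Klc3 over Klc1 moved furthest, from -5.67 ± 0.30 to -4.10 ± 0.59. Dync1i1 over Dync1i2 was the exception, at 1.33 ± 0.14 and 1.15 ± 0.26 with old 3 inside the young range (exact p = 0.3). With the trends in length and GC content removed, all 9 ratios kept their direction, with Kif5a over Kif5b at -0.42 and Dync1i1 over Dync1i2 at -0.01.

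**Figure D3:**
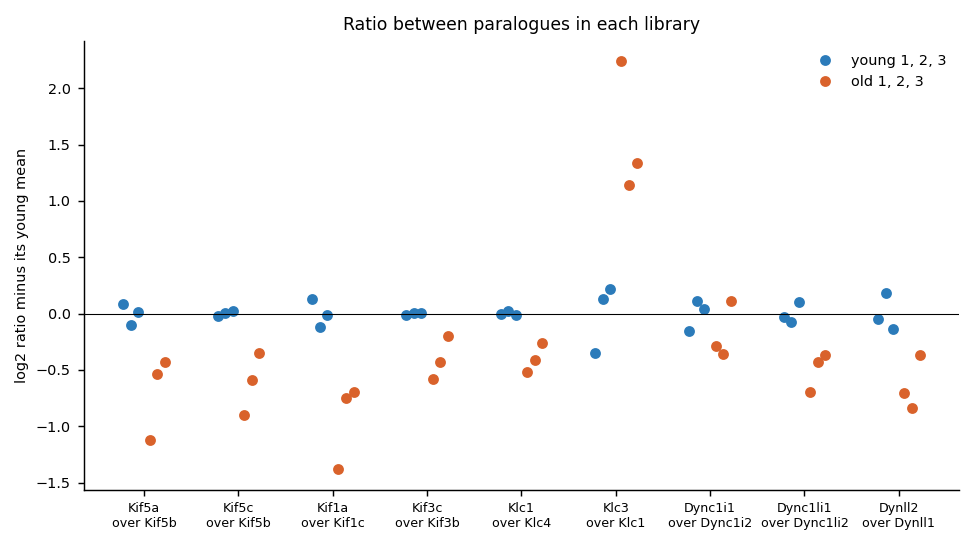
Log2 ratio between 9 pairs of related genes in each library, shown minus the mean of the young libraries (y axis), with young and old points side by side. The old points lie below 0 in 7 pairs and above it for Klc3 over Klc1, and they straddle 0 for Dync1i1 over Dync1i2.

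Counts divided by transcript length gave the make-up of each family. Kif5b supplied 20.99% ± 0.65 of the Kif5 counts per kb in the young and 29.8% ± 4.84 in the old libraries, while Kif5a went from 50.0% ± 1.79 to 43.5% ± 4.21. Kif1c took 9.89% ± 0.83 and then 16.4% ± 3.3 of the Kif1 family, and Kif1a 57.0% ± 0.25 and then 48.8% ± 3.8. In the kinesin-2 family Kif3a went from 49.1% ± 0.20 to 55.4% ± 1.61 and Kif3c from 44.0% ± 0.19 to 36.9% ± 2.16. Each of these shares lay on one side of the young range in all 3 old libraries. The shares were not recomputed with the trends in length and GC content removed. With them removed Kif3a (3161 nt) and Kif3c (6791 nt) had log2 fold changes of -0.20 and -0.27, against -0.14 and -0.57 as deposited. The shift between these 2 genes thus depended largely on the trends. Kif5b and Kif1c are the widely expressed forms of their families and Kif5a and Kif1a neuronal ones. Klc3 remained a minor light chain, at 1.79% ± 0.34 and then 5.47% ± 2.29 of the Klc counts per kb, beside 68.4% ± 0.54 and 67.6% ± 1.33 for Klc1. Dynll1 made up 16.0% ± 1.53 and then 22.9% ± 2.91 of the Dynll pair.

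**Figure D4:**
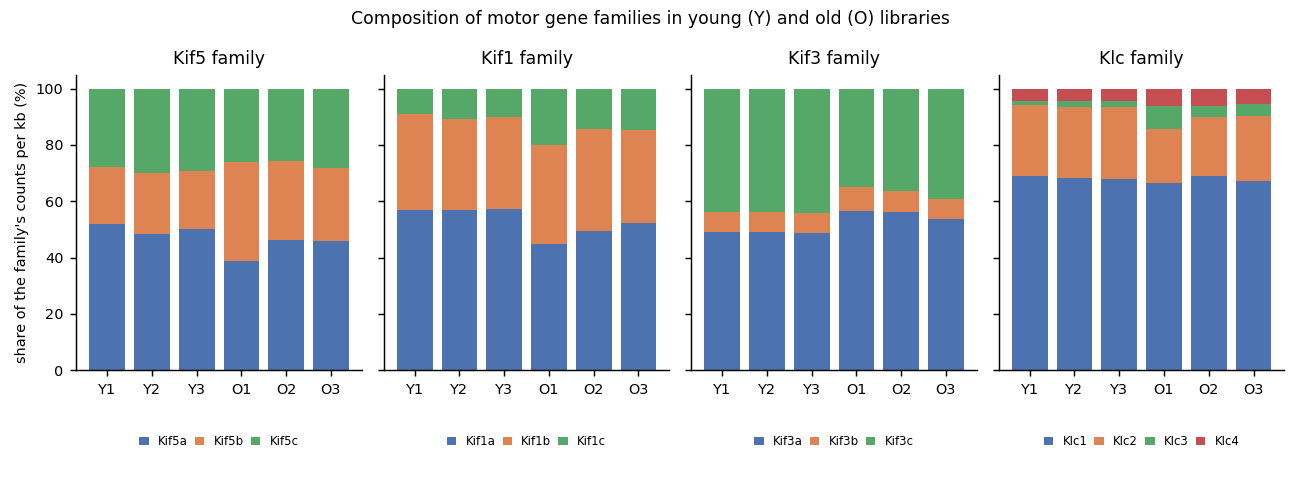
Share of each family's counts per kb of transcript (y axis, percent) taken by each gene in young (Y) and old (O) libraries, with bars that sum to 100. The Kif5b, Kif1c, Kif3a and Klc3 segments are larger in all 3 old libraries than in any young one. The shares are from counts as deposited, with no trend in length or GC content removed.

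Long heavy chains were set beside short light chains. Over the 37 kinesin heavy chains, with a median transcript of 5121 nt, 11 genes fell (29.7%, against 18.7% of all genes), 1 rose (2.7% against 15.9%) and the median change was -0.22 on the log2 scale. Over the 13 light chains of kinesin-1 and dynein, with a median transcript of 2176 nt, 3 fell (23.1%), 4 rose (30.8%) and the median change was 0.09. The difference between these medians was -0.30. As deviations from each gene's own mean, the median of the heavy chains less that of the light chains came to 0.20, 0.29 and 0.21 for the young libraries and to -0.19, -0.25 and -0.06 for the old ones, so the groups did not overlap. Among the light chains the 4 Klc genes had a median of -0.38, with 2 lower, 1 higher and 1 not passing, and the 9 dynein light chains a median of 0.16.

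Transcript length went with the direction across the members, and it did so across the whole table too. Over the 64 members the Spearman correlation of length with log2 fold change was -0.59, and over 14995 genes with a length it was -0.38, given as a description because genes of the same libraries are not independent. All 7 members with transcripts over 8000 nt (Kif1a, Kif1b, Kif13b, Kif21b, Kif26b, Dync1h1 and Dync2h1) fell, where 46.4% of all genes of that length did. Of the 10 members up to 2000 nt 0 fell and 3 rose, where 4.22% of all genes of that length fell and 30.1% rose. To see what was left beyond this, smooth trends in length and GC content were taken out of every library. Then 12 members passed (18.8%, against 22.9% of all genes), 10 lower (against 12.6%) and 2 higher (against 10.2%). The correlation with length became -0.05 over the members and -0.32 over the 37 kinesin heavy chains, where it had been -0.59. The difference between heavy and light chains became -0.057. With the trend in length alone removed that difference was 0.10, of the opposite sign.

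Of the 17 transport heavy chains 2 still passed with the trends removed, Kif1a at -0.54 (adjusted p = 0.0337) and Kifc3 at 1.01 (0.0183). Kif5a (-0.40, adjusted p = 0.0902), Kif5c (-0.41, 0.0736), Kif1b (-0.32, 0.0621) and Kif21b (-0.31, 0.0573) kept a negative value and no longer passed. In the light chains all 3 calls of kinesin-1 stood, Klc1 at -0.55 (0.0268), Klc2 at -0.53 (0.034) and Klc3 at 1.197 (0.0188). Of the dynein light chains Dynll2 passed at -0.59 (0.0116) and 0 of the 3 that had risen did, with Dynlrb1 at 0.06 (0.532). Dctn6 (-0.08), Dynlt3 (-0.13), Dync2h1 (0.09) and Kif13a (0.04) took the opposite sign and did not pass. Dync1h1 went from -0.997 to -0.42 (adjusted p = 0.0331), Dctn1 from -0.98 to -0.63 (0.0198) and Kif26b from -1.31 to -0.77 (0.00911). Dync1li1 (-0.78, 0.0128) and Kif1bp (-0.36, 0.0384) passed with values at least as far from 0 as before, and Dctn2 (-0.38, 0.0265), which had missed the threshold, passed.

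**Figure D5:**
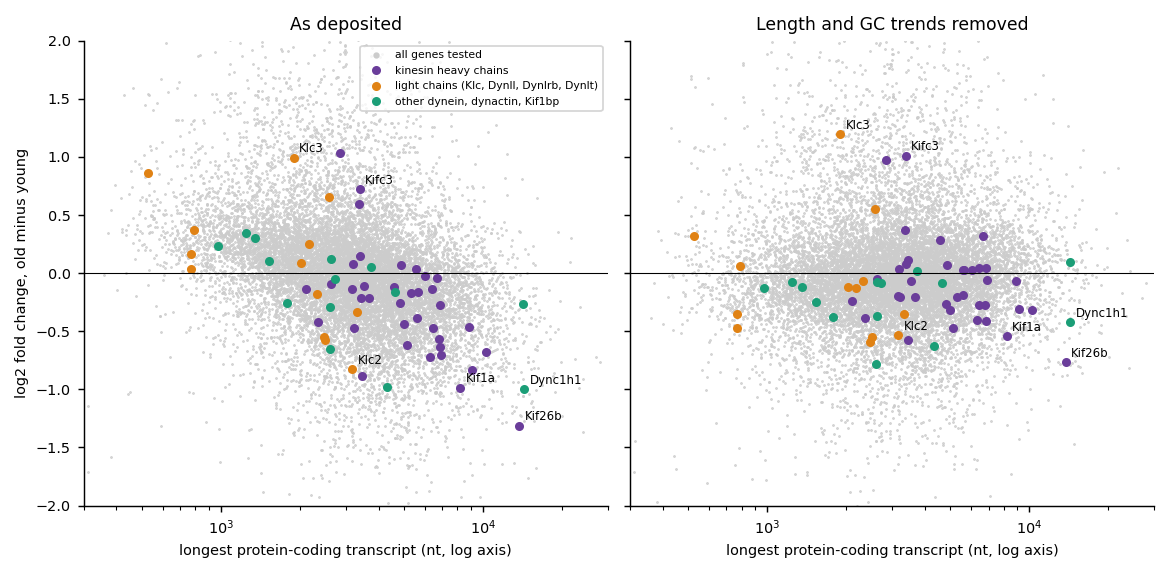
Log2 fold change, old minus young (y axis, drawn from -2 to 2), against the length of the longest protein-coding transcript (x axis, nt, log scale) for all genes tested (grey) and the members (coloured), as deposited and with length and GC trends removed. The members slope downward on the left (Spearman -0.59) and not on the right (-0.05), where Klc3, Kifc3 and Kif26b still stand away from 0.

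The old libraries did not fall evenly. Over the 19 members that fell, old 1 was the lowest of the old libraries in 17 and old 3 the highest in 17. How often all genes that fell showed this order was not counted, so it is not shown to be particular to the members. The summed level of 12 neuron markers stood in the same order, at 237651, 292462 and 350396 normalised counts, against 392622 to 424518 in the young libraries. Of those markers 4 were lower and 0 higher, and of 9 markers of spiral ganglion neurons 4 were lower and 0 higher. Over all genes tested 18.7% were lower and 15.9% higher. The spiral ganglion markers summed to 145199 to 178774 in the young and 132493 to 168066 in the old libraries, which overlap. No marker of either list was at 0 in every library. In bulk tissue fewer cells of a type and less RNA per cell cannot be told apart, and the part of the neuron markers in the members' falls was not tested. Schwann cell markers summed to 498436 to 562648 in the young and 502759 to 548241 in the old libraries (4 lower, 1 higher of 12). Macrophage markers summed to 5296 to 6911 in the young and 13210 to 19303 in the old libraries, with 9 of 10 higher and 0 lower, and osteoblast markers to 22495 to 27976 against 7382 to 12846, with 6 of 9 lower. Whether these bear on Kif26b, Kifc3 or Klc3 was not tested.

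Adaptors and regulators link the motors to cargo. The list also holds Kifap3, dynactin subunits without a Dctn symbol and the kinesin Cenpe, so its counts are not of cargo adaptors alone. Of 48 listed 47 were in the table and tested, and 22 passed (46.8%, against the 34.6% of all genes). Of these 17 were lower and 5 higher, where 18.7% of all genes were lower and 15.9% higher. The median log2 fold change of the list was -0.06. The 6 with the smallest p follow. Ppfia3, a liprin, a family known to bind Kif1a, fell from 2244 ± 158 to 1026 ± 256 (-1.15 ± 0.17, adjusted p = 0.00564). Its relative Ppfia4 fell by 1.12 ± 0.18. Trak1, which couples mitochondria to kinesin-1 and dynein, fell from 6893 ± 239 to 4127 ± 663 (-0.75 ± 0.11). Bicd2, an adaptor that activates dynein, fell by 0.69 ± 0.11, and Arl8a, which brings kinesin to lysosomes, fell by 0.76 ± 0.12. Snapin, which links dynein to late endosomes, rose from 3244 ± 41.5 to 4154 ± 133 (0.36 ± 0.06) and did not pass with the trends removed (0.05, adjusted p = 0.54). The other 5 of these passed there too. With the trends removed 12 of the list were lower and 4 higher, where 12.6% of all genes were lower and 10.2% higher.

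Where genes share bases, reads can be counted for either, and the sources used here do not say whether the kit marked strand. Of the 64 members 10 overlap another gene of the table. Klc3 shares 1253 bases with Ercc2 on the other strand, which did not pass (-0.17, adjusted p = 0.203). Klc1 shares 4653 bases with Xrcc3 (mean 469, -0.07, adjusted p = 0.64). Dynlt1a, which was lower without passing, shares 1971 bases on the other strand with Tmem181a, which passed as lower (-0.42, adjusted p = 0.0261). The part of those reads in the Dynlt1a values was not tested. Kifc1 and Kifc5b are near-identical copies, neither of which passed.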

How the data were processed

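RNA sequencing of auditory nerve from 3 young and 3 old mice was used, with groups taken from the sample titles. The submitters' processing notes name mm10, TopHat2, Partek and DESeq2. For their versions, settings and annotation, and for the kit's strand, the sources used here give nothing. The deposited sample columns are a signal, made by the authors from each gene's read count divided by 1 size factor per library, as the values show. Whole reads were recovered for 99.93% to 99.971% of values (tolerance 0.1). Per the file headers, the authors computed the deposited p-values and FDR for old against young, and the deposited fold change is a signed score, old over young, per the file headers.

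The main test was limma 3.58.1 with trended empirical Bayes on log2(value + 1), two-sided, over 15882 genes kept by edgeR's filterByExpr on the recovered reads (minimum count 10, total 15). P-values were Benjamini-Hochberg adjusted over all tested genes, with a threshold of 0.05. With 3 against 3 an exact permutation test of 1 gene cannot go below p = 0.1. From those reads edgeR (4.0.16) found 5418 genes past the threshold, 24 of them members, against 5493 and 25 in limma. Further alternatives were DESeq2 1.42.0, the authors' FDR, other scalings, pseudocounts and filters, a replicate block and libraries left out. Length and GC trends (mgcv 1.9.3, per library) used the longest protein-coding transcript in GENCODE M21, found for 94.4% of tested genes and all members. The steps were tested on simulated data.

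Members, roles, marker lists, relatives compared and adaptors were chosen with earlier results of these data known. Genes described in full were the core genes of each family, the 10 largest changes among called members with a mean of at least 100, and the most abundant and lowest-p member of each role. Of the adaptors the 6 with the smallest p were taken. Other members are named because they make up a small count or complete a family, and were chosen after their values were seen. Protein sequences are not used here.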

Additional observations from a re-analysis of the deposited data

How the results depend on the processing

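The 25 member calls (19 lower, 6 higher) and the heavy-minus-light difference of -0.30 were recomputed under 20 alternatives. A sign change between values that both missed the threshold (68 cases) was counted as no change. Scalings, pseudocounts, filters, edgeR, DESeq2 and the authors' deposited FDR gave 24 to 29 calls. The filter at a mean of 100 moved the heavy-minus-light difference to -0.42. Leaving out 1 library gave 10 to 31 calls (8 to 24 lower, 2 to 7 higher), where the share of all genes called ran from 16.1% to 38.1%, and a difference of -0.42 to -0.26. Called in all 6 of these fits were 10 members, Dctn1, Dync1h1, Dync1li1, Dynll2, Dynlrb1, Kif1a, Kif1b, Kif21b, Kif26b and Klc3. Without young 1 and old 2 there were 5 calls (4 lower, 1 higher). Removing length and GC trends left 12 calls (10 lower, 2 higher) and a difference of -0.057. Removing the length trend alone left 13 (11 lower, 2 higher) and turned the difference to 0.10. Of the called members, Dctn6 (-0.077), Dynlt3 (-0.13), Dync2h1 (0.094) and Kif13a (0.043) changed sign with both trends removed, and Dynlrb1 (-0.043) and Dync2h1 (0.18) with the length trend removed. None of these passed there, and the cause was not tested. Members with a mean of 1000 or more had 21 calls of 39 (53.8%), and those below it 4 of 25 (16%). The share of all genes at these levels is not given here. With the filter at a mean of 100, 26 of 49 members passed (53.1%, against 39.8% of all genes). The reason for the difference between levels was not tested.

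The replicate numbers are shared across ages, and the labels name no pairing. Deviations from the group means correlated at r = -0.29, -0.41 and -0.05 between same-numbered libraries, and the largest r was 0.40, for young 1 and old 2. Deviations from a mean of 3 libraries sum to 0, so these values cannot decide whether libraries were paired. The main test treated them as unpaired. A fit with the replicate number as a block gave 12 calls (10 lower, 2 higher; 18.8%, against 17.1% of all genes). With the length and GC trends also removed it gave 3 calls (3 lower, 0 higher; 4.69% against 5.5%) and a heavy-minus-light difference of -0.057. The same 4 members with changed signs kept those values under that block.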
